A study of Rattus norvegicus with 6 samples.

Results

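Genes best known from cardiomyocytes, the contracting cells of the heart, were followed in RNA sequencing libraries of cultured cardiac fibroblasts. They were Nppa (ENSRNOG00000008176), Nppb (ENSRNOG00000008141), Myh7 (ENSRNOG00000016983), Tnnt2 (ENSRNOG00000033734) and Actc1 (ENSRNOG00000008536). The list was given by identifier, and its rule uses no measured value, although it was drawn up with earlier results of these data known. The genes made up 5 of the 27108 genes in the table. The table lists identifiers without names, and the reference used here paired 0 of its identifiers with a symbol. The pairing of these 5 names with their identifiers was therefore taken as given with the list and was not checked.

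The cells came from the ventricles of neonatal rats and were labelled as cardiac fibroblasts. They were kept for 48 h on a glass surface that carried fibronectin only (UT) or fibronectin together with transthyretin fibrils (TTR). Transthyretin is a carrier protein of the blood whose misfolded form deposits in the heart in amyloidosis. There were 3 libraries for each substrate, and both shared the fibronectin coat, the glass and the culture time. The labels name no strain and do not say whether replicates came from separate animals or cell isolations, so the p-values measure only the spread between these libraries, which may be technical. Total counts ran from 6574199 to 11774729 per library, with TTR replicate 1 the deepest. Every pair of libraries differed by more than sampling noise in a chi-square test of their counts, with a chi-square of at least 5.47 per degree of freedom. This lowest value was for UT replicate 3 with TTR replicate 1. Next came 5.74 for replicate 2 of both substrates and 7.43 for UT replicate 1 with TTR replicate 3. Pairs on the same substrate ran from 8.69 to 29.9, and the other pairs across substrates from 10.1 to 23.1. This measure also grows with depth, and the libraries were not brought to equal depth for it, so its values are not strictly comparable between pairs. What the closest pairs share was not tested. Markers of fibroblasts, smooth muscle, endothelium, leukocytes and epicardium, and further cardiomyocyte genes, were not analysed here because no symbol could be matched to a row. The labelled cell type was thus not checked against its own markers.

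The genes fall into 2 functional groups. Nppa and Nppb encode atrial and brain natriuretic peptide, hormones that cardiomyocytes release when stretched and that act on kidney and vessels to lower blood volume and pressure. Myh7, Tnnt2 and Actc1 encode parts of the sarcomere, the contractile unit of striated muscle. Before birth the rodent ventricle expresses Nppa and Myh7 strongly, and both decline there as the heart matures. In hypertrophy and heart failure, Nppa, Nppb and Myh7 are commonly read together as markers of the fetal gene programme.

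Promoters are shown for the members with bases outside the annotated gene, to set 3 members that varied together across libraries (Nppa, Nppb and Actc1) beside Tnnt2, which varied little. The bases lie upstream of the RefSeq start on GRCr8, a later build than the rn6 named for the counts, and are given 5′ to 3′ on the gene's strand. Capitals mark every match on either strand to 1 of 4 short motifs: CATTCC (the M-CAT element, bound by TEAD factors), GATAA (bound by factors of the GATA family), AAGTG (the core of sites for NK2 homeobox factors such as Nkx2-5) and TATAAA (a core promoter element). No match of these motifs overlapped another.
Nppa, chr5:163711934-163712183, + strand: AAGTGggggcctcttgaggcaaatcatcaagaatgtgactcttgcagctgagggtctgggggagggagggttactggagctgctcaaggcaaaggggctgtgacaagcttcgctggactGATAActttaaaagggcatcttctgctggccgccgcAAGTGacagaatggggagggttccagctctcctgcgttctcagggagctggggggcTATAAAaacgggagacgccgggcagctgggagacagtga
Nppb, chr5:163699758-163699954, + strand: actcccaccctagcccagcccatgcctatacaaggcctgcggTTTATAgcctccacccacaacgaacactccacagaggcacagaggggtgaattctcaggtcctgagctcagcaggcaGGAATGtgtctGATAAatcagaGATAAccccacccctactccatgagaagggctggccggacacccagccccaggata
Actc1, chr3:121271828-121272077, - strand: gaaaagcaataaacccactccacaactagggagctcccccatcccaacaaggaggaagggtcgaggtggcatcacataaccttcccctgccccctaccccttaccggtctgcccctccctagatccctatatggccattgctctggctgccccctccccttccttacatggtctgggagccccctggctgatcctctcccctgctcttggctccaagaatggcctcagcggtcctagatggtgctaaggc
Tnnt2, chr13:49818873-49819122, + strand: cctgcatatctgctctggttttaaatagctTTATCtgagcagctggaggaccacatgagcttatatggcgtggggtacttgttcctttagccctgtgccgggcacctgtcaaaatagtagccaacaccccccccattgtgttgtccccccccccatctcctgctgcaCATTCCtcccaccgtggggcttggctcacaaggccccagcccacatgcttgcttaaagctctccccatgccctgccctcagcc

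In the bases shown, Nppa held 1 GATAA, 2 AAGTG and 1 TATAAA, and Nppb held 1 CATTCC, 2 GATAA and 1 TATAAA, the CATTCC and TATAAA of Nppb on the opposite strand. Tnnt2 held 1 CATTCC and, on the opposite strand, 1 GATAA. Actc1 held none of the 4. The CArG box of serum response factor and the MEF2 site, searched by name, had no match in any of the 4 stretches. Only exact matches to a fixed pattern were counted for each motif, so a missing match does not show that a site is absent. Among all 33469 RefSeq windows of 250 bases before a start, CATTCC occurred in 12.1%, GATAA in 23.5%, AAGTG in 40.6%, TATAAA in 12.9%, the CArG box in 1.50% and the MEF2 site in 2.96%. Of the 6 motifs searched, none was found upstream of all 3 of Nppa, Nppb and Actc1, because Actc1 held none. Myh7, which varied together with them, has no bases shown, and shared regulation was not tested. The 197 bases shown for Nppb are fewer than in these windows, and its full window of 250 bases held 1 further GATAA. The RefSeq windows for Myh7 and for a further start of Tnnt2 lie inside the annotated gene and are not shown. Nppb and Nppa are direct neighbours in the RefSeq gene order.

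All 5 genes were detected in all 6 libraries and all passed the low count filter. Their raw counts ran from 83 for Nppb in UT replicate 3 to 6823 for Actc1 in UT replicate 2. Counting error was therefore small, at most 11% of a value, beside the differences between libraries described next. Together the 5 genes took 0.0643% to 0.283% of all counts in a library. The share was 0.199%, 0.283% and 0.0938% in UT replicates 1, 2 and 3, and 0.0643%, 0.121% and 0.226% in TTR replicates 1, 2 and 3. The 2 groups overlapped in this share. In RNA from a whole culture, fewer cells of a type and less RNA per cell cannot be told apart. Whether the counts came from cardiomyocytes in the cultures or from the fibroblasts was not tested.

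**Figure D1:**
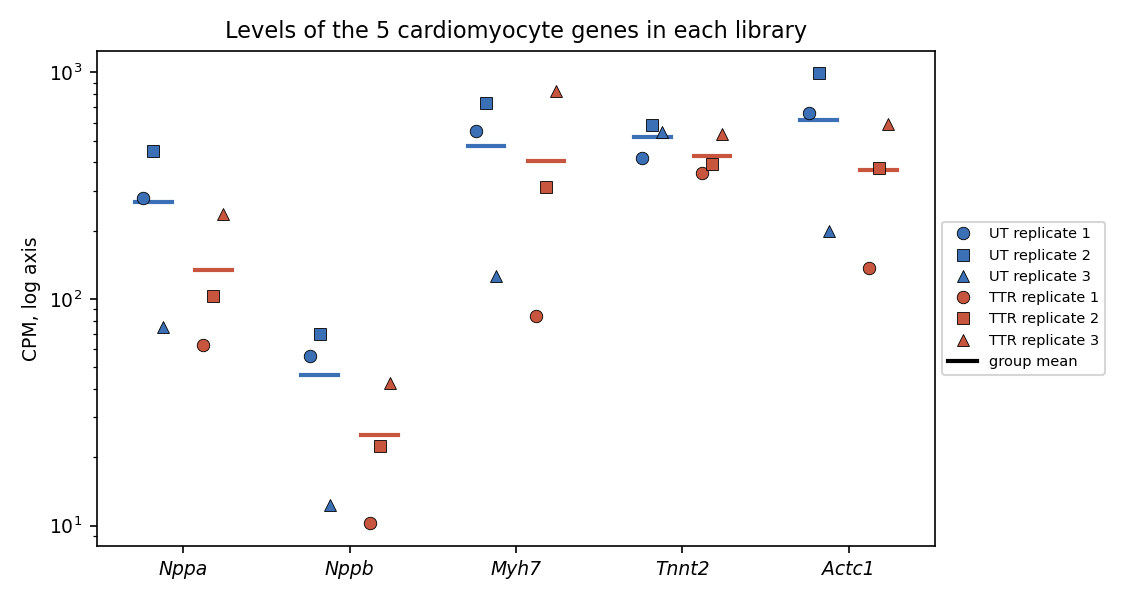
Level of each gene in each library as CPM (counts per 1000000 of the TMM-scaled library size) on a log axis, with 3 UT libraries in blue, 3 TTR libraries in red, a symbol per replicate number and a bar at each group mean. UT replicate 3 and TTR replicate 1 are the lowest libraries for Nppa, Nppb, Myh7 and Actc1, for Tnnt2 TTR replicate 1 is the lowest and UT replicate 3 the second highest, and the groups overlap for all 5 genes.

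Nppa, the atrial natriuretic peptide gene, stood at 279, 450 and 75.5 CPM in UT replicates 1, 2 and 3, and at 62.7, 103 and 238 CPM in TTR replicates 1, 2 and 3. CPM are counts per 1000000 of the library size after scaling by TMM factors. UT replicates 1 and 2 were the highest libraries, while UT replicate 3 lay among the TTR libraries, below 2 of them. The UT mean was 268 ± 187 CPM and the TTR mean 134 ± 91.7 CPM (SD, n = 3). The log2 fold, TTR minus UT, was -1.0 (SE 0.61), with a 95% interval from -2.38 to 0.38. The edgeR quasi-likelihood test gave an adjusted p of 0.999 (Benjamini-Hochberg over 12049 genes) from an unadjusted p of 0.134. The mean on TTR was thus 0.501 of that on UT, and the SD among the UT libraries exceeded the difference between the means.

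Nppb, the brain natriuretic peptide gene, followed the same order of libraries at lower counts. It stood at 56.1, 69.9 and 12.3 CPM in UT replicates 1, 2 and 3, and at 10.3, 22.5 and 42.6 CPM in TTR replicates 1, 2 and 3. UT replicate 3 and TTR replicate 1 were again the lowest, and the groups overlapped. The mean was 46.1 ± 30.1 CPM for UT and 25.1 ± 16.3 CPM for TTR (SD, n = 3). The log2 fold was -0.90 (SE 0.61), with a 95% interval from -2.28 to 0.47 and an unadjusted edgeR p of 0.171.

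Myh7, the slow beta myosin heavy chain and a motor protein of the thick filament, had the widest spread of the 5. It stood at 551, 736 and 127 CPM in UT replicates 1, 2 and 3, and at 84.0, 312 and 823 CPM in TTR replicates 1, 2 and 3. The lowest and the highest library were both TTR libraries and differed 9.79-fold. UT libraries averaged 471 ± 312 CPM and TTR libraries 406 ± 378 CPM (SD, n = 3). The log2 fold was -0.22 (SE 0.76), and its 95% interval from -1.93 to 1.49 held a more than 2-fold difference in either direction. The direction of this fold depended on single libraries, being 0.26 without UT replicate 2 and 0.27 without TTR replicate 1. Myh7 has a close paralog beside it, Myh6, and how reads common to both were counted is not given in the sources used here.

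Actc1, the cardiac alpha-actin of the thin filament, stood at 664, 990 and 199.7 CPM in UT replicates 1, 2 and 3, and at 137, 377 and 594 CPM in TTR replicates 1, 2 and 3. The order of the 6 libraries was the same as for Nppa and Nppb. UT libraries averaged 618 ± 397 CPM and TTR libraries 369 ± 228 CPM (SD, n = 3). The log2 fold was -0.74 (SE 0.59), with a 95% interval from -2.07 to 0.58 and an unadjusted edgeR p of 0.235. Actins are near-identical over much of their coding sequence, so counts of Actc1 may hold or lack reads of other actin genes.

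Tnnt2, the troponin T that anchors the troponin complex to tropomyosin on the thin filament, did not share this spread. It stood at 418, 587 and 543 CPM in UT replicates 1, 2 and 3, and at 358, 395 and 533 CPM in TTR replicates 1, 2 and 3. UT replicate 3, where the other 4 genes were near their lowest, held the second highest level of Tnnt2. That ENSRNOG00000033734 is Tnnt2 in the annotation behind the counts was not checked, and each contrast of Tnnt2 with the other genes rests on it. The mean was 516 ± 87.6 CPM for UT and 429 ± 92.5 CPM for TTR (SD, n = 3). The log2 fold was -0.27 (SE 0.18), with an unadjusted edgeR p of 0.170. Its 95% interval ran from -0.67 to 0.14 and so left out a 2-fold difference either way, which held for no other member.

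None of the 5 genes was called as different between the substrates by edgeR at an adjusted p under 0.05, where 0.0083% of all tested genes were called. At an unadjusted p under 0.05 the count was also 0 of 5, beside 2.37% of all tested genes. DESeq2 called 0 of 5, beside 0.199% of the 18627 genes with any count, and gave 0 of 5 at an unadjusted p under 0.05, beside 1.42%. Any gene that DESeq2 left without a value was counted there as not called, and this set is wider than the 12049 genes of edgeR. All 5 log2 folds were below 0, with a median of -0.74, while over all tested genes the median was -0.0038 and 51.2% lay below 0. As 4 of the 5 genes varied together, these signs are not separate observations. In 0 of 5 genes were the groups free of overlap, beside 3.1% of all tested genes with every TTR library below every UT library and 3.75% with every TTR library above. The exact permutation test of mean CPM, two-sided, gave p = 0.3 for Nppa and Nppb, 0.9 for Myh7, 0.4 for Actc1 and 0.2 for Tnnt2, where 3 against 3 libraries cannot go below 0.1.

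**Figure D2:**
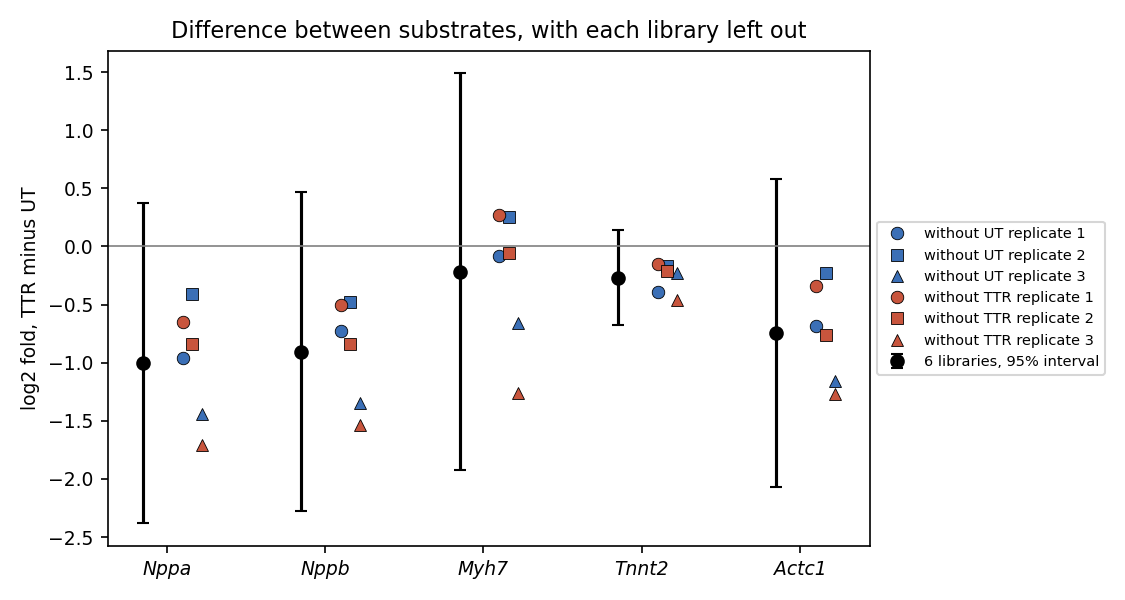
Log2 fold of each gene, TTR minus UT, from edgeR, with the black point and 95% interval for all 6 libraries and coloured symbols for the same fit without 1 library (the symbol names the library left out). All 5 intervals include 0, and Myh7 lies above 0 without UT replicate 2 (0.26) and without TTR replicate 1 (0.27).

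The size of the difference rested on which libraries were included. For Nppa the log2 fold ran from -1.70 without TTR replicate 3 to -0.41 without UT replicate 2. For Actc1 it ran from -1.27 to -0.23 with the same 2 libraries left out, and for Nppb from -1.53 to -0.48. Without UT replicate 3 the folds of Nppa, Nppb and Actc1 were -1.44, -1.35 and -1.16, with unadjusted edgeR p of 0.0161, 0.0185 and 0.0427 and an adjusted p of 0.9995. Without TTR replicate 3, the adjusted edgeR p was 0.978 for Nppa, Nppb and Tnnt2, from unadjusted values of 0.0204, 0.0376 and 0.0157. How many of all tested genes reached such unadjusted values with these libraries left out was not counted. For Tnnt2 the log2 fold lay between -0.46 and -0.15 with any 1 library left out.

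Libraries on the same substrate differed widely in 4 of the 5 genes. Among the 3 UT libraries the highest exceeded the lowest 5.96-fold for Nppa, 5.69-fold for Nppb, 5.80-fold for Myh7 and 4.96-fold for Actc1, against 1.40-fold for Tnnt2. Among the 3 TTR libraries these ratios were 3.79, 4.15, 9.79, 4.32 and 1.49 in the same order. Expressed as a coefficient of variation, the spread was 64.3% to 69.9% on UT and 61.8% to 93.1% on TTR for the 4 genes, and 17.0% and 21.6% for Tnnt2. Both substrates thus held libraries with high and with low levels of the 4 genes.

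Most genes in the table varied far less. The range over the 6 libraries, the highest minus the lowest log2 CPM, had a median of 0.54 over all 12049 tested genes. It was 2.84 for Nppa, 2.74 for Nppb, 3.29 for Myh7 and 2.85 for Actc1. Ranges at least as wide were found in 85, 99, 45 and 84 tested genes, which are 0.705%, 0.822%, 0.373% and 0.697% of them. For Tnnt2 the range was 0.71, and 32.3% of tested genes had a range at least as wide. The biological coefficient of variation that edgeR estimated around the group means was 0.50 for Nppa, 0.51 for Nppb, 0.62 for Myh7, 0.49 for Actc1 and 0.17 for Tnnt2, beside a median of 0.15 over all tested genes.

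**Figure D3:**
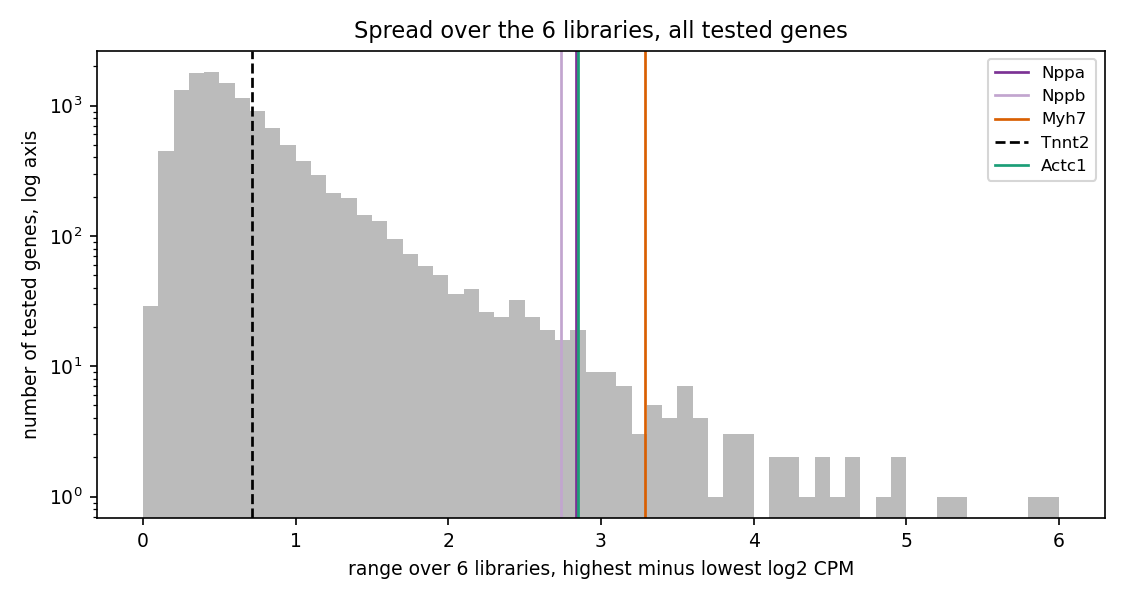
Number of tested genes (log axis) by their range over the 6 libraries, the highest minus the lowest log2 CPM, with a vertical line at each of the 5 genes. Nppa, Nppb, Myh7 and Actc1 lie in the far tail between 2.74 and 3.29, and Tnnt2 lies at 0.71 in the body of the distribution.

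The 4 widely varying genes moved together from library to library. Nppa, Nppb and Actc1 ranked the 6 libraries identically, from UT replicate 2 and UT replicate 1 through TTR replicate 3, TTR replicate 2 and UT replicate 3 to TTR replicate 1. Myh7 differed only in placing TTR replicate 3 first. Among the TTR libraries all 5 genes, Tnnt2 included, had the order replicate 3, 2, 1, as did 22.6% of all tested genes. Among the UT libraries the 4 genes without Tnnt2 had the order replicate 2, 1, 3, as did 14.7% of all tested genes, and 4.13% had both orders. In UT replicate 3 these genes stood at 15.4% to 20.2% of their own highest level, and in TTR replicate 1 at 10.2% to 14.7%. Tnnt2 stood at 92.6% of its highest level in UT replicate 3 and at 61.0% in TTR replicate 1.

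**Figure D4:**
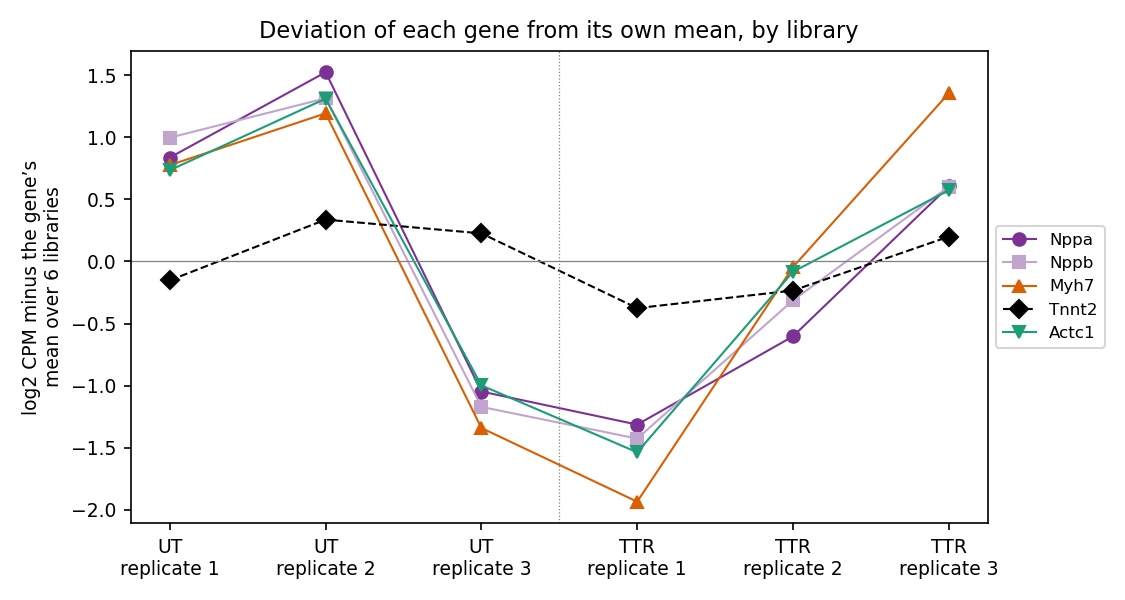
Log2 CPM of each gene minus its own mean over the 6 libraries, by library, with lines joining the points of 1 gene and a dotted line between the UT and the TTR libraries. Nppa, Nppb, Myh7 and Actc1 lie above their means in UT replicates 1 and 2 and TTR replicate 3 and between -1.93 and -0.998 in UT replicate 3 and TTR replicate 1, while Tnnt2 stays between -0.38 and 0.34.

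Relations between the genes were computed for all 10 pairs on log2 CPM over 6 libraries. For the 6 pairs among Nppa, Nppb, Myh7 and Actc1, Pearson's r ran from 0.92 to 0.99, with exact permutation p from 0.00139 to 0.0139 and adjusted values over the 10 pairs from 0.00463 to 0.0231. Spearman's rho was 1 for the 3 pairs among Nppa, Nppb and Actc1, with an exact permutation p of 0.00278 (adjusted 0.00926), and 0.83 for the 3 pairs with Myh7 (p = 0.0583, adjusted 0.0972). The lowest of these p-values, 0.00139 for r and 0.00278 for rho, are the smallest that 6 libraries allow. Without the 2 libraries farthest from the median, r over the other 4 lay between 0.78 and 0.98 for these 6 pairs. With the group means taken out, r was 0.95 to 0.99 for the same pairs. The pairs were grouped here by their values in these same data. How many gene pairs of the whole table reach such r was not counted, so these p-values do not show a relation particular to these genes.

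For the 4 pairs with Tnnt2, r ran from 0.45 to 0.54, with exact permutation p from 0.206 to 0.335 and adjusted values from 0.294 to 0.335. Without the 2 libraries farthest from the median, r for these pairs spread from -0.37 to 0.86. At this number of libraries no relation of Tnnt2 with the other 4 genes passed the test, which does not show that none exists.

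Within a library, ratios of raw counts gave the same picture without any scaling of libraries. A ratio carries the lengths of both genes, so it is compared here only between libraries. Nppa over Nppb lay between 4.57 and 6.43 in all 6 libraries, a 1.41-fold span, although each gene varied about 7-fold (7.17 and 6.82) over them. Actc1 over Nppb spanned 1.42-fold and Actc1 over Nppa 1.67-fold. Myh7 over Nppa was 1.97, 1.64 and 1.68 in UT replicates 1, 2 and 3, and 1.34, 3.03 and 3.46 in TTR replicates 1, 2 and 3. TTR replicates 2 and 3 thus held more Myh7 for their Nppa than any UT library, while TTR replicate 1 held less, and the groups overlapped. Actc1 over Tnnt2 was 1.59, 1.69 and 0.368 in UT replicates 1, 2 and 3, and 0.384, 0.954 and 1.11 in TTR replicates 1, 2 and 3, a 4.59-fold span.

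The libraries low in the 4 genes also stood together on the first principal component of all tested genes, the 5 members included, but not on the third. On the first principal component of log2 CPM over all tested genes, UT replicate 3 and TTR replicate 1 had scores of 23.0 and 25.5, UT replicate 2 and TTR replicate 2 had -2.52 and 2.67, and UT replicate 1 and TTR replicate 3 had -18.5 and -30.2. UT replicate 3 and TTR replicate 1 had 15.5 and 6.11 on the second component. The third split the substrates, with 10.8, 21.5 and 7.55 in UT replicates 1, 2 and 3. TTR replicates 1, 2 and 3 had -12.1, -13.6 and -14.1 on it. The share of variance of each component is not given here. UT replicate 3 and TTR replicate 1 were the 2 lowest libraries in 12.5% of all tested genes and in 4 of the 5 members. Total counts were 11774729 in TTR replicate 1, the most of all libraries, and 6897626 in UT replicate 3, and the part of depth was not tested. What sets these 2 libraries apart was not tested.

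Tested genes with a pattern most like the 5 were sought by the correlation of their log2 CPM with the mean of the standardised member values over the 6 libraries. The closest were ENSRNOG00000005122 (r = 0.996) and ENSRNOG00000053753 (r = 0.993), for which the sources used here give no symbol. The first lay between 3.19 and 4.79 CPM, a 1.50-fold span, and the second between 1.64 and 7.55 CPM, a 4.61-fold span, so only the second varied on a scale near that of the 4 genes. Both lay below the lowest member value, 10.3 CPM for Nppb in TTR replicate 1, and their counting error was not computed. They were picked as the highest r of all tested genes over 6 libraries, so these r are no test of shared variation. In all, 73 other tested genes (0.606%) reached r of at least 0.95 with this mean. Nppa, Nppb, Myh7 and Actc1, which enter the mean, stood at 0.96 to 0.98, and Tnnt2, which enters it too, at 0.66.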

How the data were processed

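The authors deposited raw counts per Ensembl rat gene in 1 table, without normalization; per the submitters' processing notes, STAR, featureCounts, edgeR and the build rn6 were used. No source used here gives versions, the annotation, the strand setting or the treatment of multi-mapping reads, so reads of paralogs, overlapping or antisense genes may be split or lost. Columns were matched to samples by description label. Genes were filtered with filterByExpr (minimum count 10, 12049 kept), scaled by TMM and tested for TTR against UT with the edgeR 4.0.16 quasi-likelihood test (R 4.3.3), group as the only term, Benjamini-Hochberg adjustment over all tested genes, threshold 0.05. Log2 CPM used a prior count of 2. Single genes were also compared by exact permutation (Python 3.11.15, SciPy 1.17.1). Alternatives were RLE factors, library totals alone, 2 other filters, DESeq2 1.42.0, limma-voom (limma 3.58.1), a block for the replicate number, and omission of each library in turn. The tests were tried on simulated data. The outcome is not given here, and nothing is drawn from it about the power for the 5 members. The named genes were the 5 members and the 2 genes most like their mean. Members, lists and motifs were chosen with earlier results of these data known. Levels per coding length, planned marker lists, and a planned adjustment over the members of the permutation p of mean CPM were not used here.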

Additional observations from a re-analysis of the deposited data

How the results depend on the processing

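For all genes, the 1 call by edgeR became 36 without a low count filter, 3 when 1 CPM in 3 or more libraries was required, 37 with DESeq2 and 0 with the replicate block. Leaving out 1 library gave 1 to 9 calls, reaching 2 without UT replicate 2 and 9 without TTR replicate 1. The cause of these moves was not tested. For the 5 members the count of calls was 0 under all 13 alternatives, with adjusted p-values of 0.978 or above. At an unadjusted p under 0.05 the count was 2 without a low count filter (Nppa and Nppb), 3 without UT replicate 3, 3 without TTR replicate 3 and 0 under the others. The share of all tested genes at this threshold was not counted in those refits, so these counts are not read as a result about the members. Nppa, Nppb, Actc1 and Tnnt2 kept log2 folds below 0 under all 13 alternatives, and Myh7 under 11. Leaving out 1 library took Myh7 from -1.26 to 0.27, above 0 without UT replicate 2 (0.26) and without TTR replicate 1 (0.27). Under the alternatives that kept all libraries the folds ran from -1.03 to -0.89 for Nppa, -0.90 to -0.87 for Nppb, -0.80 to -0.69 for Actc1, -0.27 to -0.26 for Tnnt2 and -0.63 to -0.21 for Myh7, where -0.63 came from the replicate block. The labels do not say what a shared replicate number marks. Deviations from the group means over all tested genes correlated at -0.38, 0.44 and -0.40 for numbers 1, 2 and 3. They correlated at 0.58 for UT replicate 3 with TTR replicate 1 and at 0.52 for UT replicate 1 with TTR replicate 3. The remaining combinations ran from -0.25 to -0.094. Each UT library thus had a positive value with only 1 TTR library. The numbers were therefore not taken to pair the libraries, and what the matched libraries share was not tested. The main fit was unpaired, so its intervals and p-values include this shared spread. With library totals alone in place of TMM, the groups still overlapped for all 5 members. The part of depth in the width of the intervals was not tested.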
